A study of Mus musculus with 128 samples.

Results

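Setd2, Nsd1, Ash1l, Kdm2a and Kdm2b encode the main enzymes that place methyl groups on lysine 36 of histone H3 (H3K36) or, in the case of the 2 Kdm2 genes, remove them. They were taken by gene symbol and make up 5 of the 41300 genes in the deposited count table, and all 5 were detected in every library used. Their RNA was followed through 4 stages of early mouse development, in single MII oocytes and in single embryos of 2, 4 and 8 cells, with and without the maternal histone demethylase gene Kdm4a. Each oocyte or embryo was lysed in its own tube after its zona was removed with acid Tyrode's solution, and its polyA RNA was amplified with a SMART-Seq kit and sequenced. The design asks how loss of Kdm4a alters the transcriptome at each stage.

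The knockout groups held C57BL/6 oocytes of genotype Kdm4a knockout (m-/p-) and the embryos made from them by fertilization with Kdm4a-knockout sperm. The wildtype groups, labelled WT (m+/p-), held C57BL/6 oocytes with functional Kdm4a and the embryos they gave with the same kind of sperm, so that every embryo of both genotypes lacked a functional paternal copy. Embryos were taken 1.5, 2.5 and 3.5 days after fertilization at 2, 4 and 8 cells, with both genotypes sampled together when the control embryos had reached the stage. There were 16 libraries in each of the 8 groups. The labels give neither the deleted exons of Kdm4a nor the number of mothers or of mating batches, so the p-values reflect only how far single oocytes or embryos differed, and littermates cannot be told apart.

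SETD2 travels with elongating RNA polymerase and trimethylates H3K36 over transcribed gene bodies, whereas NSD1 and ASH1L give mainly the mono- and dimethylated forms. In mouse oocytes the trimethylation placed by SETD2 marks transcribed genes and is needed for the oocyte's DNA methylation pattern. KDM2A and KDM2B are JmjC demethylases of the lower H3K36 states that find CpG islands through a CXXC zinc finger, which binds unmethylated CG, and KDM2B also brings a variant Polycomb complex there. KDM4A, the protein missing from the knockout, removes trimethylation from H3K36 and from H3K9.

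In mm10, Setd2 (ENSMUSG00000044791.16) lies at chr9:110532597-110618633 on the plus strand, Nsd1 (ENSMUSG00000021488.8) at chr13:55209782-55318325 on the plus strand, and Ash1l (ENSMUSG00000028053.13) at chr3:88950622-89079375 on the plus strand. Kdm2a (ENSMUSG00000054611.17) lies at chr19:4314419-4398285 and Kdm2b (ENSMUSG00000029475.17) at chr5:122870665-122989823, both on the minus strand. The deposited table lists the exons it counted, 8350 bases for Setd2, 13636 for Nsd1, 11644 for Ash1l, 9713 for Kdm2a and 5860 for Kdm2b. All of these bases are exonic in the GENCODE M21 annotation too, which holds further exon bases of each gene (10754 in all for Setd2 and 10869 for Kdm2b), so reads from some annotated transcripts lie outside the counts. The counted exons of Ash1l share 35 bases with Dap3 on the other strand. Those of Kdm2b share 627 bases with Rnf34 and 199 with AC121564.2 on the other strand, and 124 with RP23-214I6.5 on its own strand. No source used here says whether counting used strand, so reads over those bases cannot be assigned with certainty.

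RefSeq promoter windows (GRCm38.p6, 250 bases before to 50 after an annotated start) were matched for 2 of the 5 genes, and 3 windows are shown with every CG in capitals. The first belongs to Setd2, the gene whose level differed between genotypes. The others belong to an upstream and an internal start of Kdm2b, because short Kdm2b transcripts from an internal start lack the JmjC domain and cannot be separated from the long ones in gene-level values.
Setd2 start, chr9:110532347-110532646, plus strand: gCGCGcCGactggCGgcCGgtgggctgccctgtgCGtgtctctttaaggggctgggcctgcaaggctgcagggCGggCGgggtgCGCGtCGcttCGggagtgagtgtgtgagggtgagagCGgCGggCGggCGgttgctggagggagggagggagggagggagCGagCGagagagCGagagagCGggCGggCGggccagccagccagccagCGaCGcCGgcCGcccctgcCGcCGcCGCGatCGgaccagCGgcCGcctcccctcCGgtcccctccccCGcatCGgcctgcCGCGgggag
Kdm2b upstream start, chr5:122989050-122989349, minus strand: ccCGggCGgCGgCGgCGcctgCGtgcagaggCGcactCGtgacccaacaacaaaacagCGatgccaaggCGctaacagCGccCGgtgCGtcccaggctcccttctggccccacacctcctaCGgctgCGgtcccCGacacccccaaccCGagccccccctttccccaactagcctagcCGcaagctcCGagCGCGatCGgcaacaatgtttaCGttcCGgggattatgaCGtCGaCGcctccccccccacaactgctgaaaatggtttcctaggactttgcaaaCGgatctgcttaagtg
Kdm2b internal start, chr5:122900318-122900617, minus strand: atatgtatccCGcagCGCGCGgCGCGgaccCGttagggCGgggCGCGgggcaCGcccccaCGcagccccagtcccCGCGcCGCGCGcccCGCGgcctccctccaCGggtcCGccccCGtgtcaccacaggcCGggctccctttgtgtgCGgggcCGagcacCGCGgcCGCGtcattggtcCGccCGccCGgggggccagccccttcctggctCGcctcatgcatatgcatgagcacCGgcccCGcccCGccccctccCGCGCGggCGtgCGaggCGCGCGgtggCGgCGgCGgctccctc
The motif searched was CG, which reads the same on both strands. The Setd2 window held 38 CG, a number reached by 4.95% of the 32851 RefSeq windows of the same length, whose median was 7. The upstream Kdm2b window held 28 CG, reached by 14.18% of windows. The internal one, whose start lies 89456 bases downstream of the 5′ end of the gene, held 47, reached by 1.44% of windows. These counts describe the letters of the windows and say nothing of methylation in these embryos.

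Of the 128 libraries, 127 were used. 8-cell knockout replicate 4 was left out because it held 419 counts, and the others held 528377 to 4657857 (median 2130015). The targeted gene followed the labels at the first 2 stages. Kdm4a averaged 1.28 ± 0.90 CPM (counts scaled to each library's total) in knockout and 10.9 ± 3.05 CPM in wildtype MII oocytes (SD, n = 16 each), and 2.65 ± 1.83 CPM in knockout and 15.1 ± 4.81 CPM in wildtype 2-cell embryos (n = 16 each). It was too low for the test at 4 cells (1.76 against 4.59 CPM in wildtype) and at 8 cells (1.99 against 1.31 CPM in wildtype). Across 3309 genes, each library was correlated with the median profile of each group, and the larger r of the 2 genotypes was taken for each stage. By this measure 125 libraries were most like their own stage. The library labelled 8-cell knockout replicate 7 went against its label: its r was 0.765 for the 2-cell stage and -0.223 for the 8-cell stage. In it 5 oocyte markers summed to 1948 CPM, against 11.9 to 42.2 CPM in the other 8-cell knockout libraries. Genotype effects and stage changes of the 5 genes that involve the 8-cell knockouts are therefore given with and without it. 8-cell knockout replicate 16 was slightly nearer the 4-cell stage (0.945) than the 8-cell stage (0.919). MII knockout replicate 15 was atypical, with oocyte markers at 1284 CPM, the lowest of all MII oocytes. The 6 markers of cumulus cells, which surround the oocyte, summed to at most 2.75 CPM in any MII oocyte.

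Setd2 was the most abundant of the 5 genes per length at most stages, and its level was higher from the 4-cell stage on than before it. Setd2 ranged from 60.1 to 179.7 CPM with a median of 87.9 in knockout MII oocytes, against 56.6 to 143 CPM with a median of 110.1 in wildtype MII oocytes. In 2-cell embryos, Setd2 ranged from 53.4 to 153 CPM (median 80.3) in knockouts, against 60.1 to 208 CPM (median 114) in wildtypes. Most 2-cell knockouts lay at the low end of the wildtype range, with 15 of 16 below the wildtype median, although the ranges overlapped. In 4-cell embryos, Setd2 ranged from 207 to 641 CPM (median 369) in knockouts, against 204 to 537 CPM (median 358) in wildtypes. In 8-cell embryos, Setd2 ranged from 183 to 696 CPM (median 373) in knockouts, against 155 to 419 CPM (median 309.8) in wildtypes. The genotypes overlapped widely at both later stages, and 13 of 15 knockout 8-cell embryos lay above the wildtype median.

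**Figure D1:**
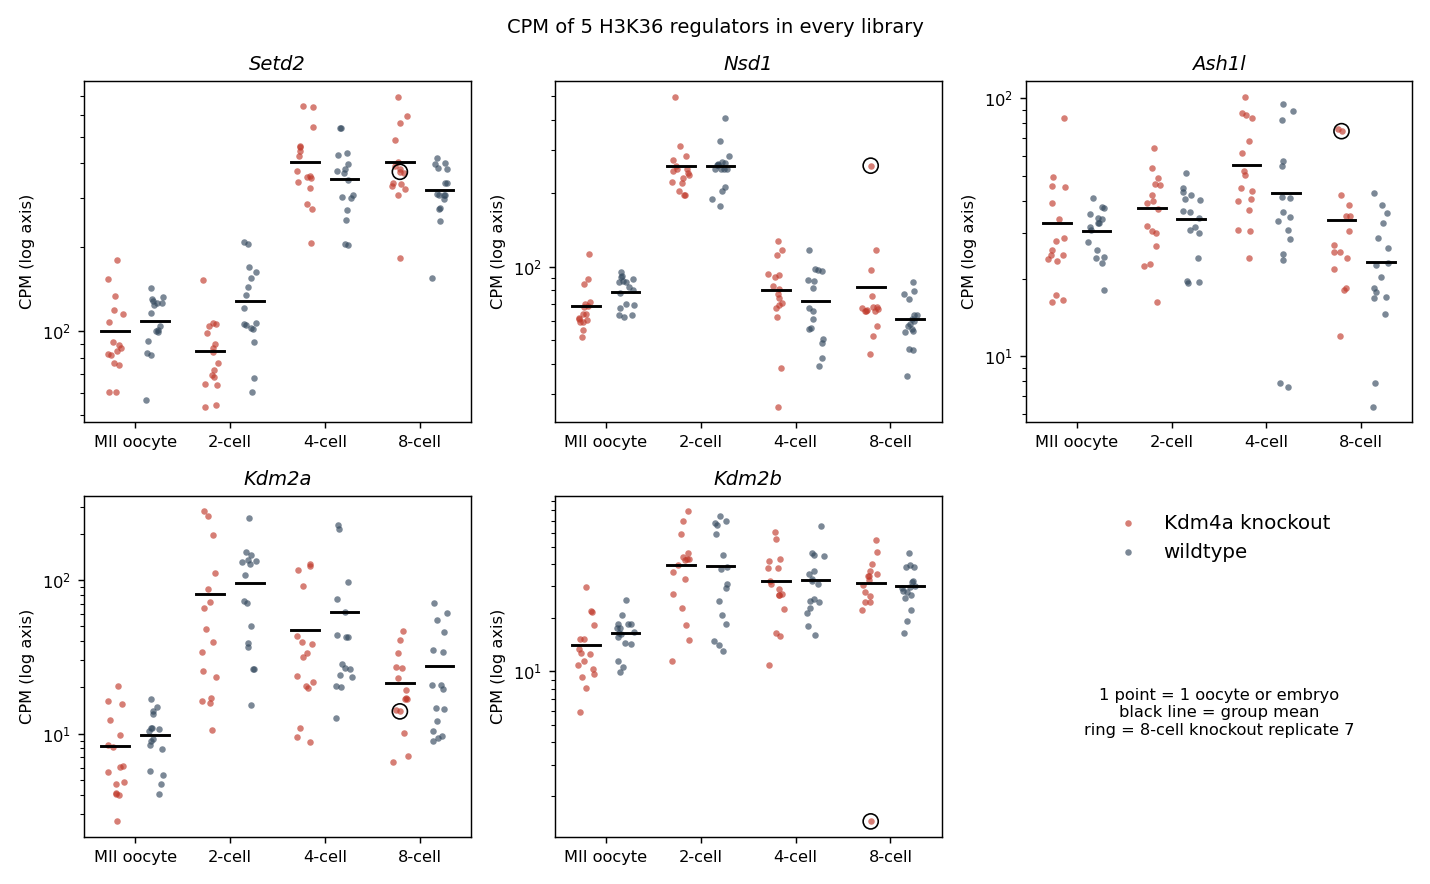
CPM of Setd2, Nsd1, Ash1l, Kdm2a and Kdm2b (log axes) in each of 127 libraries at 4 stages, Kdm4a knockout in red and wildtype in dark blue, with group means as black lines. Setd2 is higher at 4 and 8 cells than before, Nsd1 is high at 2 cells, Kdm2a spreads most widely at 2 and 4 cells, and the ringed library, 8-cell knockout replicate 7, stands apart for Nsd1 (259 CPM) and Kdm2b (1.44 CPM).

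In 2-cell embryos Setd2 was lower in the Kdm4a knockout, at 84.4 ± 25.3 CPM against 127.7 ± 43.9 CPM in wildtypes (SD, n = 16 each). The log2 fold change, knockout minus wildtype and scaled by TMM, was -0.55 (SE 0.15), or 0.68 times the wildtype level, with an adjusted p of 0.00857 (edgeR, quasi-likelihood, Benjamini-Hochberg over 8728 genes). Setd2 was thus the 1 of 5 genes called at this stage, where 17.3% of all genes were called and 10% were called lower. As CPM is relative to a library's total, less Setd2 RNA and more RNA from other genes cannot be told apart. The difference was present in replicates 1 to 8, where knockouts (53.4 to 98.1 CPM) and wildtypes (102 to 208 CPM) did not overlap and the log2 fold change was -0.89 with an adjusted p of 0.00261 in edgeR. The share of all genes without overlap in this split was not counted. In replicates 9 to 16 the log2 fold change of Setd2 was -0.23 with an edgeR adjusted p of 0.668. The difference between the 2 ranges, 0.65 (SE 0.27), had an edgeR adjusted p of 0.274, in a test added after seeing the data. The 2-cell knockouts also had less of 5 markers of the 2-cell stage (summed median 410.2 CPM, range 119 to 1792, against a median of 1217, range 544 to 2749, in wildtypes). Their mitochondrial share of counts was 2.64 ± 0.65%, against 3.43 ± 1.21% in wildtypes. The part of either in the Setd2 difference was not tested.

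**Figure D2:**
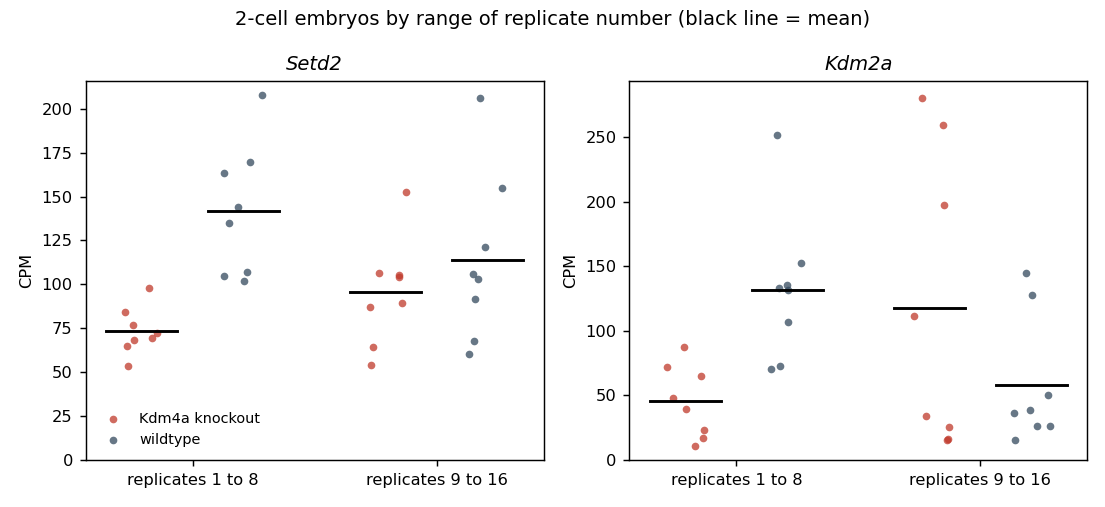
CPM of Setd2 (left) and Kdm2a (right) in single 2-cell embryos, Kdm4a knockout in red and wildtype in dark blue, split by replicate number (n = 8 per group and range), with means as black lines. For both genes the knockouts lie lower in replicates 1 to 8, while in replicates 9 to 16 the genotypes overlap and the Kdm2a mean is 118 CPM in knockouts and 58.2 CPM in wildtypes.

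From the 2-cell to the 4-cell stage Setd2 rose in both genotypes, by a log2 fold change of 2.02 (SE 0.16) in knockouts and 1.25 (SE 0.15) in wildtypes, with edgeR adjusted p of 9.41e-19 and 4.61e-11. A stage change was called when its adjusted p was under 0.05 and its absolute log2 fold change at least 1. The median of all genes at this step was -0.30 in knockouts and -0.43 in wildtypes with TMM scaling, and -0.69 and -0.76 with RLE scaling. Relative to that median the Setd2 change was 2.31 in knockouts and 1.68 in wildtypes under either scaling. The subtraction removes the offset between the scalings, so this agreement was fixed in advance and is no separate check. Without that subtraction the wildtype change was 0.92 under RLE scaling and in DESeq2, under the limit of 1. The rise was larger in knockouts: the genotype by stage difference was 0.77 (SE 0.22), edgeR adjusted p = 0.0101, against a median of 0.20 over all genes, and Setd2 was the 1 of 5 genes called where 15.5% of all genes were called and 11.4% were called higher. From MII to 2 cells, the TMM-scaled log2 change of Setd2 was -0.70 (SE 0.14) in knockouts, edgeR adjusted p = 9.13e-06. In wildtypes it was -0.24 (SE 0.14), edgeR adjusted p = 0.107, and both were under the limit of 1. The wildtype mean was higher at 2 cells (127.7 CPM, against 108.9 CPM at MII), so the direction in wildtypes depended on the scaling. The genotype by stage difference at that step was -0.46 (SE 0.20), edgeR adjusted p = 0.169. From 4 to 8 cells the change of Setd2 was 0.12 (SE 0.16) in knockouts, or 0.07 without 8-cell knockout replicate 7, and -0.01 (SE 0.16) in wildtypes.

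At the other stages Setd2 did not pass the genotype test. The log2 fold change was -0.10 (SE 0.13) at MII, 0.21 (SE 0.15) at 4 cells and 0.39 (SE 0.17) at 8 cells, with edgeR adjusted p of 0.665, 0.373 and 0.14. Without the library labelled 8-cell knockout replicate 7 the 8-cell value was 0.31 with an edgeR adjusted p of 0.172. The estimates were thus negative in oocytes and 2-cell embryos and positive at 4 and 8 cells. The confidence interval ran from -0.36 to 0.15 at MII and from -0.09 to 0.51 at 4 cells. Each of these covers either sign, so the sign of the knockout difference is not settled at MII or at 4 cells. With all libraries the 8-cell interval ran from 0.05 to 0.73. It is not adjusted for the number of genes tested, and the 8-cell effect was not called.

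Nsd1, a writer of H3K36 dimethylation, peaked at the 2-cell stage in both genotypes. Nsd1 ranged from 51.2 to 112 CPM (median 63.7) in knockout MII oocytes, against 62.05 to 94.9 CPM (median 81.3) in wildtype MII oocytes. In 2-cell embryos, Nsd1 ranged from 197 to 498 CPM (median 244) in knockouts, against 177 to 406 CPM (median 257) in wildtypes. Every 2-cell embryo of either genotype lay above every MII oocyte, and the share of all genes separated in this way was not counted. In 4-cell embryos, Nsd1 ranged from 26.6 to 128 CPM (median 78.95) in knockouts, against 39.0 to 117 CPM (median 66.9) in wildtypes. In 8-cell embryos, Nsd1 ranged from 43.8 to 259 CPM (median 67.1) in knockouts, against 35.7 to 86.3 CPM (median 58.95) in wildtypes. The highest 8-cell value came from knockout replicate 7, and without it the highest was 117 CPM.

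Nsd1 rose from MII to 2 cells, by a log2 fold change of 1.44 (SE 0.11) in knockouts and 1.24 (SE 0.11) in wildtypes, with edgeR adjusted p of 1.11e-19 and 7.62e-17. It fell from 2 to 4 cells, with a log2 fold change of -1.957 (SE 0.15) in knockouts and -2.07 (SE 0.16) in wildtypes, edgeR adjusted p of 1.16e-18 and 9.3e-20. Relative to the median of all genes the fall was -1.66 in knockouts and -1.64 in wildtypes. From 4 to 8 cells the change was 0.29 (SE 0.22) in knockouts, or -0.13 without knockout replicate 7, and -0.14 (SE 0.22) in wildtypes.

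The mean of Nsd1 in 2-cell embryos was 258.0 ± 71.4 CPM in knockouts and 258.0 ± 54.3 CPM in wildtypes (SD, n = 16 each). Its log2 fold change there was 0.05 (95% interval -0.16 to 0.26). At MII it was -0.16 (SE 0.11), edgeR adjusted p = 0.384, with 13 of 16 knockout oocytes below the wildtype median. This value depended on MII knockout replicate 15, the highest at 112 CPM: without it the log2 fold change was -0.25 with an edgeR adjusted p of 0.0328. In replicates 1 to 8 it was -0.39 with an edgeR adjusted p of 0.0423, and in replicates 9 to 16 it was 0.06. At 4 cells the log2 fold change was 0.15 (SE 0.18) and at 8 cells 0.68 (SE 0.27), with edgeR adjusted p of 0.629 and 0.0927. Without the library labelled 8-cell knockout replicate 7, the 8-cell value was 0.18 with an edgeR adjusted p of 0.419.

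Ash1l, a H3K36 methyltransferase of the Trithorax group, was present at every stage and had no called stage change. Ash1l ranged from 16.3 to 84.0 CPM (median 27.0) in knockout MII oocytes, against 18.05 to 41.1 CPM (median 32.3) in wildtype MII oocytes. In 2-cell embryos, Ash1l ranged from 16.2 to 64.35 CPM (median 38.2) in knockouts, against 19.3 to 51.4 CPM (median 35.4) in wildtypes. The highest oocyte value was again that of MII knockout replicate 15. In 4-cell embryos, Ash1l ranged from 24.0 to 102 CPM (median 47.75) in knockouts, against 7.60 to 94.98 CPM (median 35.4) in wildtypes. In 8-cell embryos, Ash1l ranged from 11.97 to 76.15 CPM (median 27.05) in knockouts, against 6.38 to 43.1 CPM (median 21.5) in wildtypes. Of the knockouts, 13 of 16 at 4 cells and 12 of 15 at 8 cells lay above the wildtype median.

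No genotype difference of Ash1l passed the test: the log2 fold changes were 0.17 (SE 0.20) at MII, 0.16 (SE 0.16) at 2 cells, 0.34 (SE 0.28) at 4 cells and 0.71 (SE 0.30) at 8 cells, with edgeR adjusted p of 0.645, 0.537, 0.423 and 0.117. Without knockout replicate 7 the 8-cell value was 0.39 with an edgeR adjusted p of 0.306, and without knockout replicate 15 the MII value was -0.04. Among the stage changes of Ash1l, the nearest to a call was from 4 to 8 cells, at -0.51 (SE 0.28) in knockouts, -0.77 without replicate 7, and -0.80 (SE 0.28) in wildtypes, with edgeR adjusted p of 0.194, 0.0254 and 0.0215, all under the limit of 1. From MII to 2 cells the TMM-scaled change was -0.32 in knockouts and -0.31 in wildtypes, while the mean CPM was higher at 2 cells (37.5 against 33.0 CPM at MII in knockouts, 34.1 against 30.7 CPM at MII in wildtypes), so its direction depended on the scaling.

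**Figure D3:**
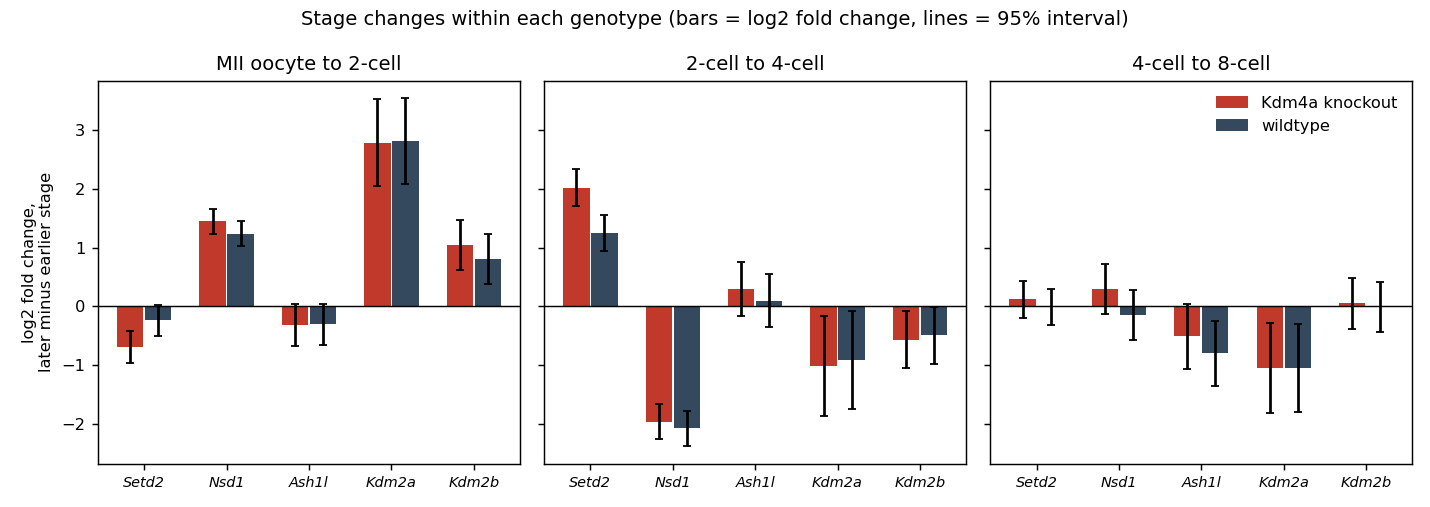
Log2 fold change (TMM-scaled, later minus earlier stage) of the 5 genes at 3 steps, Kdm4a knockout in red and wildtype in dark blue, with lines for the 95% interval. Nsd1, Kdm2a and Kdm2b are above 0 from MII to 2 cells, Setd2 is above 0 and Nsd1 below 0 from 2 to 4 cells, and Kdm2a is near -1 from 4 to 8 cells.

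Kdm2a, an eraser of the lower H3K36 states, was the scarcest of the 5 genes per length in oocytes and varied most between embryos at 2 and 4 cells. Kdm2a ranged from 2.68 to 20.3 CPM (median 6.10) in knockout MII oocytes, against 4.015 to 16.9 CPM (median 9.78) in wildtype MII oocytes. In 2-cell embryos, Kdm2a ranged from 10.5 to 280.1 CPM (median 43.7) in knockouts, against 15.3 to 251.5 CPM (median 89.95) in wildtypes. Single 2-cell embryos of 1 genotype thus differed more than 10-fold. In 4-cell embryos, Kdm2a ranged from 8.83 to 127 CPM (median 32.6) in knockouts, against 12.7 to 227 CPM (median 35.5) in wildtypes. In 8-cell embryos, Kdm2a ranged from 6.495 to 46.2 CPM (median 17.1) in knockouts, against 8.975 to 70.6 CPM (median 20.1) in wildtypes. The coefficient of variation at 2 cells was 107.6% in knockouts and 67.3% in wildtypes, where counting error alone would give 8.52% and 7.07%.

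Kdm2a rose from MII to 2 cells, by a log2 fold change of 2.78 (SE 0.38) in knockouts and 2.81 (SE 0.37) in wildtypes, with edgeR adjusted p of 1.02e-09 and 5.12e-10, the largest change of the 5 genes at any step in either genotype. It fell from 2 to 4 cells in knockouts, with a log2 fold change of -1.01 (SE 0.43), edgeR adjusted p = 0.0257. In wildtypes the value was -0.91 (SE 0.43), edgeR adjusted p = 0.0432, under the limit of 1, while under RLE scaling and in DESeq2 it was -1.22 and was called. The genotype by stage difference, -0.11 (SE 0.60), had an edgeR adjusted p of 0.936. Relative to the median of all genes, the TMM-scaled change was -0.72 in knockouts and -0.48 in wildtypes. From 4 to 8 cells Kdm2a fell again, with log2 fold changes of -1.04 (SE 0.39) in knockouts and -1.05 (SE 0.38) in wildtypes, with edgeR adjusted p of 0.0474 and 0.0256. Under RLE scaling and in DESeq2 the knockout value was -0.98, and with no filter on low counts its edgeR adjusted p was 0.0558, so it was not called in any of the 3. Without 8-cell knockout replicate 7 the TMM-scaled knockout value was -1.05, edgeR adjusted p = 0.0409.

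The genotype effect on Kdm2a was not called at any stage with all libraries: -0.22 (SE 0.24) at MII, -0.23 (SE 0.44) at 2 cells, -0.36 (SE 0.41) at 4 cells and -0.32 (SE 0.32) at 8 cells, with edgeR adjusted p of 0.6, 0.746, 0.6 and 0.557. Without 8-cell knockout replicate 7 the 8-cell value was -0.35, edgeR adjusted p = 0.498. At 2 cells the 95% interval ran from -1.09 to 0.62, so an effect of either sign within it was not detectable at this spread. The 2 ranges of replicate numbers gave opposite signs. In replicates 1 to 8, Kdm2a averaged 45.4 ± 27.8 CPM in knockout and 131.8 ± 56.8 CPM in wildtype 2-cell embryos (SD, n = 8 each), a log2 fold change of -1.49 with an edgeR adjusted p of 0.00875. In replicates 9 to 16 it averaged 118 ± 113 CPM in knockouts and 58.2 ± 49.5 CPM in wildtypes (n = 8 each), a log2 fold change of 0.96 with an edgeR adjusted p of 0.523. The test of the difference between the ranges was added after seeing the data. It gave 2.45 (SE 0.79), p = 0.00428 before adjustment in edgeR and 0.156 after it, where 47 of 10015 genes were called. Whether the ranges mark a batch is not given in the labels. The highest value, 280.1 CPM, came from the shallowest library, 2-cell knockout replicate 13 with 528377 counts, without which the 2-cell log2 fold change over all replicates was -0.45, edgeR adjusted p = 0.485.

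Kdm2b, which pairs H3K36 demethylation with recruitment of Polycomb repressive complex 1 to CpG islands, was low in oocytes and reached similar mean CPM at 2, 4 and 8 cells. Kdm2b ranged from 5.96 to 29.6 CPM (median 12.6) in knockout MII oocytes, against 9.88 to 25.2 CPM (median 16.6) in wildtype MII oocytes. In 2-cell embryos, Kdm2b ranged from 11.4 to 79.0 CPM (median 40.9) in knockouts, against 13.1 to 74.0 CPM (median 34.2) in wildtypes. The embryos of both genotypes covered nearly the same range. In 4-cell embryos, Kdm2b ranged from 10.9 to 60.5 CPM (median 29.9) in knockouts, against 16.0 to 65.4 CPM (median 31.5) in wildtypes. In 8-cell embryos, Kdm2b ranged from 1.44 to 54.8 CPM (median 32.7) in knockouts, against 16.5 to 46.3 CPM (median 29.4) in wildtypes. The low 8-cell value was that of knockout replicate 7, and the next lowest was 22.1 CPM.

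Kdm2b rose from MII to 2 cells in knockouts, by a log2 fold change of 1.04 (SE 0.22), edgeR adjusted p = 2.04e-05. In wildtypes the value was 0.80 (SE 0.22), edgeR adjusted p = 0.000745, under the limit of 1, and the difference between the genotypes, 0.24 (SE 0.31), had an adjusted p of 0.723. From 2 to 4 cells the value was -0.57 (SE 0.25) in knockouts and -0.49 (SE 0.25) in wildtypes, with edgeR adjusted p of 0.0312 and 0.0609. Under RLE scaling it was -0.96 in knockouts and -0.84 in wildtypes, with edgeR adjusted p of 0.000365 and 0.0017, all under the limit of 1. The TMM value relative to the median of all genes was -0.27 in knockouts and -0.06 in wildtypes. The genotype effect on Kdm2b was -0.19 (SE 0.16) at MII, 0.06 (SE 0.26) at 2 cells, -0.04 (SE 0.22) at 4 cells and 0.04 (SE 0.22) at 8 cells, or 0.13 at 8 cells without knockout replicate 7. The edgeR adjusted p values with all libraries were 0.472, 0.897, 0.933 and 0.919. The 95% interval at 4 cells, -0.46 to 0.39, leaves room for a difference of either sign within it.

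**Figure D4:**
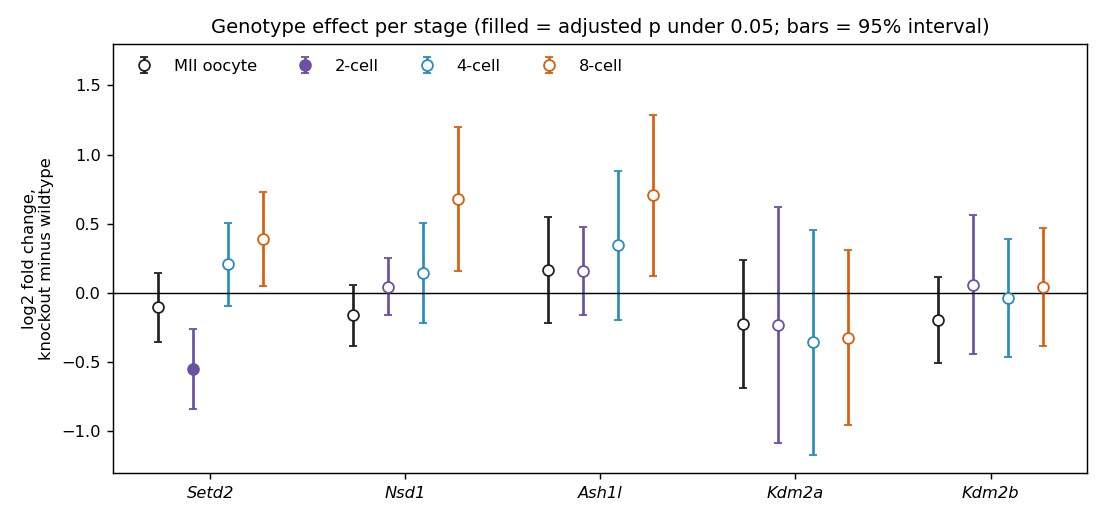
Log2 fold change (TMM-scaled, knockout minus wildtype) of the 5 genes at 4 stages, with bars for the 95% interval and filled points for an adjusted p under 0.05 in edgeR. The filled point is Setd2 at 2 cells (-0.55), and the 8-cell points of Nsd1 (0.68) and Ash1l (0.71) include the library labelled 8-cell knockout replicate 7, without which they are 0.18 and 0.39.

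Counted over the 5 genes, edgeR called 0 in MII oocytes, where 12% of all genes tested were called, 0 in 4-cell embryos (16.4% of all genes) and 0 in 8-cell embryos (11.4%). DESeq2 also called 0 at each of these stages. At an unadjusted p under 0.05 the edgeR counts were 0, 0 and 3, the 3 being Nsd1, Ash1l and Setd2 at 8 cells. Without the library labelled 8-cell knockout replicate 7 the 8-cell count was 1, Setd2, and 0 of 5 were called where 12.4% of all genes were. The median log2 fold change of the 5 genes was -0.16 at MII, 0.05 at 2 cells, 0.15 at 4 cells and 0.39 at 8 cells (0.175 without that library), beside medians of all genes of 0.02, -0.0056, -0.0046 and 0.03 (0.025 without it). For the change of the genotype effect between stages, 0 of 5 genes were called in edgeR from MII to 2 cells (4.11% of all genes, 1 of 5 at an unadjusted p under 0.05) and 0 of 5 from 4 to 8 cells (2.73% of all genes, 0 of 5 unadjusted). DESeq2 called 0 at both steps.

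Between stages, 3 of 5 genes in knockouts (Nsd1, Kdm2a and Kdm2b) and 2 of 5 in wildtypes (Nsd1 and Kdm2a) were called from MII to 2 cells, all higher, beside 49.3% of all genes called in knockouts (29.9% higher) and 51.3% in wildtypes (31.3% higher). From 2 to 4 cells, 3 of 5 in knockouts (Setd2, Nsd1 and Kdm2a) and 2 of 5 in wildtypes (Setd2 and Nsd1) were called, beside 75% of all genes in knockouts and 74.7% in wildtypes. From 4 to 8 cells, 1 of 5 in each genotype was called, Kdm2a, which was lower, beside 12% of all genes in knockouts (3.88% lower) and 20.6% in wildtypes (11.3% lower). DESeq2 called Kdm2a at this step in wildtypes but not in knockouts. Values are relative to the RNA total of a library and not per embryo.

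Levels of different genes were compared per length, as CPM per kb of exon. Setd2 had 11.95 ± 3.97 CPM per kb in knockout and 13.1 ± 2.78 in wildtype MII oocytes, and 48.6 ± 14.7 in knockout and 42.3 ± 12.1 in wildtype 4-cell embryos (SD, n = 16 each). Nsd1 had 18.9 ± 5.23 CPM per kb in knockout and 18.9 ± 3.98 in wildtype 2-cell embryos and was then above Setd2, at 10.1 ± 3.03 in knockouts and 15.3 ± 5.26 in wildtypes. Kdm2a had 0.86 ± 0.54 CPM per kb in knockout and 1.01 ± 0.39 in wildtype MII oocytes, the lowest of the 5 there. Of the summed per-length level of the 5 genes, Setd2 made up 51.1% in knockout and 51.2% in wildtype MII oocytes, 22.2% in knockout and 29.1% in wildtype 2-cell embryos, and 68.9% in knockout and 66.55% in wildtype 4-cell embryos. Nsd1 made up 41.0% in knockout and 36.1% in wildtype 2-cell embryos. The 2 Kdm2 genes together made up 30.0% in knockout and 29.2% in wildtype 2-cell embryos, against 14.4% in knockout and 15.02% in wildtype MII oocytes.

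**Figure D5:**
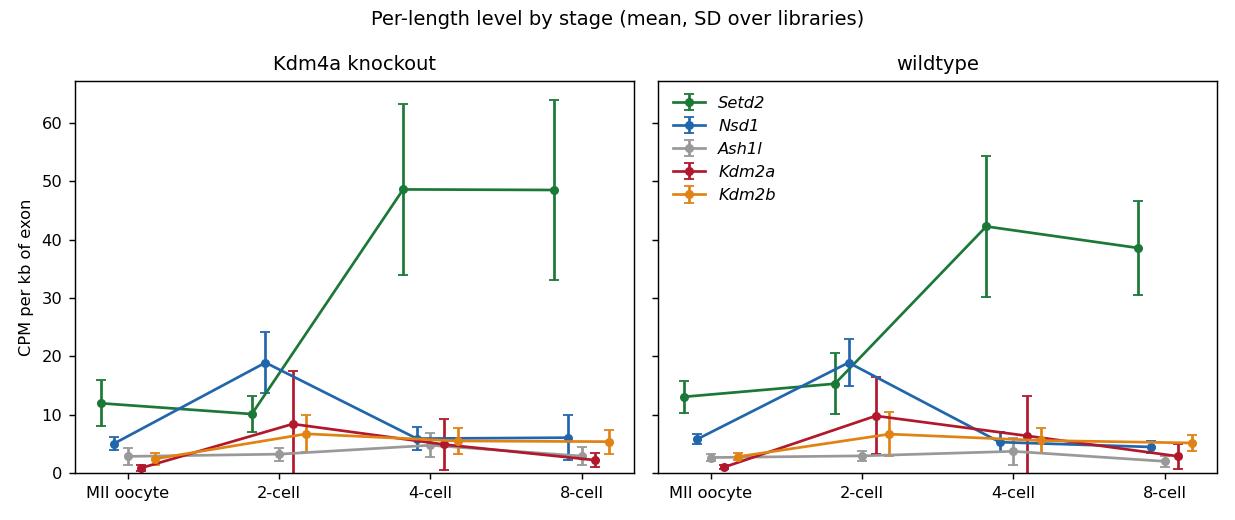
Mean level per length (CPM per kb of exon, error bars SD over 15 or 16 libraries) of the 5 genes by stage, Kdm4a knockout left and wildtype right. Nsd1 leads at 2 cells with 18.9 CPM per kb in both genotypes, and Setd2 leads at 4 cells with 48.6 in knockouts and 42.3 in wildtypes.

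When the 8 groups were put in order of mean log2(CPM + 1) for each gene, 35 pairs of neighbours were compared with two-sided permutation tests of 100000 resamples, adjusted over the 35. For Setd2 the order ran from 4-cell knockout through 8-cell knockout, 4-cell wildtype and 8-cell wildtype to 2-cell wildtype, MII wildtype, MII knockout and 2-cell knockout. Only the step between 8-cell wildtype and 2-cell wildtype passed, with a difference of 1.37 and an adjusted p of 0.000175 in the permutation test, the raw p of 1e-05 being the smallest the resamples can give. For Nsd1 the 2-cell groups stood above the rest, and only the step between 2-cell knockout and MII wildtype was 1.67 with the same adjusted p of 0.000175 in the permutation test. For Kdm2a both 2-cell groups came first and both MII groups last, and the step between 8-cell knockout and MII wildtype was 0.95 with a permutation adjusted p of 0.00525. With TMM-scaled CPM that last step was 0.56 with a permutation adjusted p of 0.242. No neighbours of Ash1l differed beyond their spread. Only neighbours were compared, so a gradual change over several groups could go unseen. The ends of the Ash1l order, 4-cell knockout (5.69) and 8-cell wildtype (4.44), were not compared. For Kdm2b the step between 8-cell knockout and MII wildtype was 0.74 with a permutation adjusted p of 0.0504, and without 8-cell knockout replicate 7 the step between 8-cell wildtype and MII wildtype was 0.83 with a permutation adjusted p of 0.000117.

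Over the 127 libraries the 5 genes followed each other only in part. Pearson's r of log2(CPM + 1) was -0.48 for Setd2 and Nsd1, 0.43 for Kdm2a and Kdm2b and 0.41 for Nsd1 and Kdm2a, and 0.24 or less in size for the other 7 pairs. After subtraction of each group's mean, r lay between -0.11 and 0.24 for all 10 pairs, the highest being Setd2 with Ash1l. The points share library totals and stages, and r is given as a description.

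Among 4841 genes with a mean of at least 20 CPM, those whose pattern over the 127 libraries was most like Setd2 were Rab5a (r = 0.91), Hmgb1 (0.91) and Slc12a2 (0.91). For Nsd1 they were Zscan4c (0.85), Ttk (0.84) and Zscan4d (0.84). Zscan4c and Zscan4d are near-identical copies of a gene family switched on at the 2-cell stage, and their counts can share reads. For Kdm2a they were Sod1 (0.73), Csnk2b (0.69) and Ubb (0.68), and for Kdm2b Baz2a (0.73), Trim27 (0.68) and Smarcb1 (0.67). Ash1l had no close match, with Msl2 (0.54), Arhgap11a (0.53) and Rmnd5a (0.52) nearest. Likeness was the Pearson correlation of log2(CPM + 1), which is dominated by differences between stages.

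Of 5 other H3K36 writers (Nsd2, Nsd3, Setmar, Smyd2 and Prdm9), none was called between genotypes at any stage in edgeR or DESeq2, with 2 of 5 tested at MII and 4 of 5 at each later stage, and none had an unadjusted edgeR p under 0.05. Nsd2, which dimethylates H3K36, had 36.5 ± 11.7 CPM in knockout and 41.8 ± 19.1 CPM in wildtype 2-cell embryos (n = 16 each), a log2 fold change of -0.14. Between stages, Prdm9 and Setmar rose from MII to 2 cells, with log2 fold changes of 2.06 in knockouts and 2.38 in wildtypes for Prdm9, the meiotic methyltransferase, and 2.25 in knockouts and 2.79 in wildtypes for Setmar. Nsd2 fell from 2 to 4 cells, with log2 fold changes of -1.89 in knockouts and -2.80 in wildtypes. Smyd2 rose from 4 to 8 cells, by 2.15 in knockouts and 2.02 in wildtypes.

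Of 5 other erasers, 4 were in the table, and 1 of them, the Kdm4a paralog Kdm4c, was high enough for the genotype test at 2 cells. Kdm4c was lower in knockout 2-cell embryos, at 7.94 ± 4.15 CPM against 23.5 ± 20.2 CPM in wildtypes (SD, n = 16 each), a log2 fold change of -1.52 (SE 0.35), edgeR adjusted p = 0.00312. At 4 cells it had 178 ± 35.97 CPM in knockouts and 148.7 ± 43.7 CPM in wildtypes, a log2 fold change of 0.26, edgeR adjusted p = 0.197. It was below 1 CPM in MII oocytes of both genotypes. The 2-cell call of Kdm4c, like that of Setd2, was not reached in replicates 9 to 16 alone, where its log2 fold change was -1.3 with an edgeR adjusted p of 0.126. Kdm4b, Kdm4d and Kdm8 were too low for the genotype test at 2 cells.

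Of 16 readers of H3K36 methylation and partners of elongation, 13 were tested at MII, where 0 were called in edgeR or DESeq2 and 1 had an unadjusted edgeR p under 0.05; Psip1, a reader of H3K36 methylation, had 1169 ± 260.1 CPM in knockout and 1207 ± 109 CPM in wildtype oocytes. At 2 cells 2 of 12 were called, both higher, beside 7.30% of all genes called higher and 17.3% in either direction: Iws1, an elongation partner of SETD2, with a log2 fold change of 0.44 (SE 0.12), edgeR adjusted p = 0.00924, and Msh6, a mismatch repair protein that binds trimethylated H3K36, with 0.63 (SE 0.19), adjusted p = 0.0212. At 4 cells 2 of 10 were called, both higher, beside 8.97% of all genes called higher and 16.4% in either direction: Psip1, at 159.8 ± 54.8 CPM in knockouts and 71.1 ± 36.5 CPM in wildtypes, and Morf4l1, a chromodomain reader, at 255 ± 69.8 CPM in knockouts and 164.5 ± 53.0 CPM in wildtypes, with edgeR adjusted p of 0.000181 and 0.00515. The 5 oocyte markers summed to more in 4-cell knockouts, at a median of 68.8 CPM (range 43.3 to 118.5), against 36.2 CPM (range 9.80 to 96.7) in wildtypes. Of the 5, Gdf9 was not higher in these knockouts (mean 4.87 CPM, against 5.29 CPM in wildtypes). Mos was near 0 in both (0.46 CPM in knockouts, 0.27 CPM in wildtypes). The sum was already higher in knockouts at MII, with a median of 7240 CPM against 4616 CPM in wildtype oocytes. Morf4l1, unlike Psip1, was lower at MII than at 4 cells, at 91.1 CPM in knockout and 91.3 CPM in wildtype oocytes. The part of the markers in the 4-cell differences was not tested. At 8 cells Psip1 was the 1 of 10 called, with a log2 fold change of 3.30, which was 1.09 with an edgeR adjusted p of 0.000495 without the library labelled 8-cell knockout replicate 7.

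Of 11 partners of KDM2B in Polycomb and ubiquitin ligase complexes, 7 or 8 were tested at each stage. At MII 1 of 7 was called in edgeR, beside 6.69% of all genes called lower, and 3 of 7 in DESeq2. The 1 was Pcgf1, the Polycomb subunit that ties KDM2B to its complex, at 477 ± 154 CPM in knockouts and 631 ± 131 CPM in wildtypes, a log2 fold change of -0.39, edgeR adjusted p = 0.0463, a call that held in 10 of 25 alternatives. At 2 cells Pcgf1 was instead higher, with a log2 fold change of 0.61, and Yaf2, a RYBP-like subunit, lower, at -0.82, with edgeR adjusted p of 0.0417 and 0.00378, and the Pcgf1 call held in 14 of 25 alternatives. At 4 cells 4 of 8 were called, all higher, beside the same 8.97% of all genes. Among them were Cul1 at 494 ± 112 CPM in knockouts and 195 ± 75.5 CPM in wildtypes, Yaf2 at 24.1 ± 13.7 CPM in knockouts and 6.42 ± 5.41 CPM in wildtypes, and Rnf2, the catalytic ubiquitin ligase, at 296.5 ± 107.0 CPM in knockouts and 184 ± 73.4 CPM in wildtypes. Cul1 was at 3789 CPM in knockout and 3504 CPM in wildtype MII oocytes. Yaf2 was at 76.85 CPM in knockout and 82.6 CPM in wildtype MII oocytes, and Rnf2 at 388 CPM in knockouts and 327.5 CPM in wildtypes. Cul1, Yaf2 and Rnf2 were thus higher there than at 4 cells. At 2 cells Yaf2 was at 14.95 CPM in knockouts and 28.1 CPM in wildtypes, while Cul1 and Rnf2 stayed above their 4-cell levels. In wildtype 8-cell embryos Cul1 was at 391 CPM, Rnf2 at 278 CPM and Yaf2 at 6.95 CPM. The part of the levels at other stages in the 4-cell differences was not tested. Bcor, also called higher at 4 cells, was lower at MII than at 4 cells. It was at 2.86 CPM in knockout and 2.99 CPM in wildtype MII oocytes, against 16.5 CPM in knockout and 5.06 CPM in wildtype 4-cell embryos. At 8 cells Skp1a and Cul1, parts of the F-box ligase, were called higher in edgeR (2 of 8, beside 8.69% of all genes), and 1 of 8 was called in DESeq2. The Skp1a call held in 7 of 26 alternatives, and without the library labelled 8-cell knockout replicate 7 the log2 fold change of Cul1 was 0.06, edgeR adjusted p = 0.819. That of Skp1a was then 0.39, edgeR adjusted p = 0.0138. The median log2 fold change of the tested partners at 4 cells was 0.39, beside -0.0046 for all genes.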

How the data were processed

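Polyadenylated RNA was sequenced from 128 single oocytes and embryos in 8 groups of 16. The authors deposited 1 table of estimated counts for all genes. Per the submitters' processing notes, the authors used Trimmomatic 0.32, STAR 2.5.1a and featureCounts 1.5.1 with mm10, and 30.56% of the nonzero values are not whole, so they were rounded here. Libraries under 100000 counts were left out, which removed 1. The others held 528377 to 4657857 counts, and 3 counts is the floor of detection. CPM was taken on each library's total.

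Genotype effects were fitted per stage with edgeR 4.0.16 (R 4.3.3) by quasi-likelihood with TMM scaling, filterByExpr and robust estimation, and p-values were adjusted by Benjamini-Hochberg over all genes tested at 0.05. Stage changes and genotype by stage differences were fitted over both stages, with a further limit of 1 on the size of a stage change (log2). The procedure was tested on simulated data. Alternatives were DESeq2 1.42.0, RLE scaling, no filter, a filter of 10 CPM in 8 libraries, a depth covariate, a replicate block, the 2 ranges of replicate numbers, and leaving out libraries. Permutation tests and figures used scipy 1.17.1 and matplotlib 3.10.9.

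The genes, lists and tests were chosen with earlier results of these data known. At most 3 genes per list and comparison are named, those with the smallest p among the called, and otherwise the most abundant. Same-numbered libraries were not treated as pairs.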

Additional observations from a re-analysis of the deposited data

Results flagged for a closer look

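The knockout effect differed between stages, by the test of the difference itself, for 9 results among the 5 genes and the lists. At the step from 2 to 4 cells, 15.5% of all genes were called, and the median difference over all genes was 0.20. There edgeR called 1 of the 5 genes, 0 of 4 other writers tested and 1 of 2 other erasers tested. It also called 3 of 13 readers and elongation partners and 3 of 8 partners of KDM2B. From 2 to 4 cells the Setd2 difference was 0.77 (edgeR adjusted p = 0.0101), from an effect of -0.55 at 2 cells and 0.21 at 4 cells. At the same step the log2 difference was 2.72 for Yaf2 (edgeR adjusted p = 3.54e-06), 1.26 for Cul1 (3.54e-06), 1.21 for Psip1 (7.31e-05), 1.77 for Kdm4c (0.000615), -0.66 for Iws1 (0.00818), 0.52 for Morf4l1 (0.0455) and 1.87 for Bcor (0.048). From MII to 2 cells it was 0.98 for Pcgf1 (edgeR adjusted p = 0.0175). Pcgf1 was the 1 called of 8 partners of KDM2B tested there, where 4.11% of all genes were called. The call of Morf4l1 held in 0 of 4 alternatives and that of Bcor in 1 of 4.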

How the results depend on the processing

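Of 710 recomputed values of Setd2, Nsd1, Ash1l, Kdm2a and Kdm2b, 655 kept their direction and their side of the threshold, and Setd2 at 2 cells was called under every alternative except replicates 9 to 16 alone (-0.229). The cause of the changes below was not tested. In replicates 9 to 16 the log2 fold change at MII was 0.0595 for Nsd1 and 0.0203 for Kdm2b, at 2 cells -0.0268 for Nsd1, 0.959 for Kdm2a and -0.0169 for Kdm2b, and at 8 cells -0.156 for Kdm2b, and 161, 140, 412 and 111 genes were called from MII to 8 cells, against 919, 1512, 1229 and 826 with all libraries. In replicates 1 to 8 it was -0.39 for Nsd1, -0.239 for Ash1l and 0.0583 for Kdm2a at MII, -1.49 for Kdm2a at 2 cells, and -0.256 for Ash1l and 0.192 for Kdm2b at 4 cells, with 138 genes called at 4 cells and 1 at 8 cells. These splits have fewer samples. Without MII knockout replicate 15 it was -0.254 for Nsd1 (called) and -0.0433 for Ash1l at MII, the Ash1l difference between MII and 2 cells was 0.182, and 1517 genes were called at MII and 645 for that difference. Without 8-cell knockout replicate 7, an alternative chosen after seeing the data, the 4 to 8 cell value of Nsd1 in knockouts was -0.127, that of the Kdm2a difference -0.000217, and 1 pair of neighbours differed for Kdm2b. Leaving out each replicate number in turn gave -0.0349 to 0.239 for Ash1l at MII, -0.241 to -0.121 for Nsd1 at MII, -0.0646 to 0.0879 for Nsd1 at 2 cells, and for Kdm2b -0.0747 to 0.14 at 2 cells, -0.156 to 0.107 at 4 cells and -0.0829 to 0.146 at 8 cells, with 694 to 1483 genes called at MII. From 2 to 4 cells, DESeq2 gave -0.0947 in knockouts and -0.237 in wildtypes for Ash1l, and in wildtypes 0.922 for Setd2 and -1.22 for Kdm2a. RLE scaling gave -0.0952 in knockouts and -0.237 in wildtypes for Ash1l, and in wildtypes 0.922 for Setd2 and -1.22 for Kdm2a. From 4 to 8 cells in knockouts, DESeq2 gave -0.116 for Nsd1 and -0.983 for Kdm2a, and RLE gave -0.982 for Kdm2a. Genes called for the genotype by stage difference numbered 658 in DESeq2 from MII to 2 cells (421 in edgeR) and 484 under RLE from 4 to 8 cells (241 under TMM). With no filter on low counts, 2670 genes were called at 4 cells and 2895 at 8 cells, 221 for the difference between MII and 2 cells and 1030 for that between 4 and 8 cells. Stage calls then numbered 13545 in knockouts and 14100 in wildtypes from MII to 2 cells, 16420 in knockouts and 16904 in wildtypes from 2 to 4 cells, and 2869 in knockouts and 4319 in wildtypes from 4 to 8 cells. In the same fit Kdm2b in knockouts was 0.933 from MII to 2 cells, and from 4 to 8 cells Kdm2a in knockouts was -1.05 and not called, its difference -0.0285, and Setd2 in wildtypes 0.00246. Same-numbered libraries did not deviate together (median r from -0.05 to 0.02 per stage), so the numbers were not used to pair them, and whether ranges of numbers mark batches is not given in the labels. A replicate block gave 130 genes at 8 cells and 34 for the difference from 4 to 8 cells, Kdm2b at 8 cells -0.0611, the Ash1l difference from MII to 2 cells 0.112 and the Kdm2a differences 0.0534 from 2 to 4 cells and -0.0996 from 4 to 8 cells. With the block, Kdm2a from 2 to 4 cells was -1.02 in knockouts (not called) and -1.07 in wildtypes (called), from 4 to 8 cells -0.884 in knockouts and -0.784 in wildtypes (neither called), and in wildtypes Setd2 was 0.0235 and Kdm2b 0.0366. In the order of levels, TMM-scaled CPM gave 2 differing neighbours for Setd2 and 0 for Kdm2a, and CPM without the log scale gave 1 for Kdm2b. Of 405 recomputed values of the list genes, 79 were no longer called and 0 reversed. Genes under the filter on low counts were not tested, among them Kdm4a at 4 and 8 cells, 3 of 5 other writers at MII and 6 of 16 readers at 4 cells and at 8 cells.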
